A study of Drosophila melanogaster with 12 samples.

Results

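The genes described are 10 that act in the female germline of *Drosophila melanogaster* or in the egg it makes: gnu, png, osk, nos, vas, aub, bcd, grk, otu and orb. They were taken by gene symbol from a deposited table of 14001 genes, and all 10 were found there. They were chosen by name and not by their values, though earlier results of these data were known. Oocytes grow in egg chambers of the adult ovary, where nurse cells load them with messenger RNA and protein that the embryo uses before its own genome is transcribed. Several of these maternal messages are carried to 1 pole of the oocyte and kept silent until they arrive, and so fix the axes of the embryo and the place where its germ cells form. The larval ovary still holds primordial germ cells, and egg chambers form later. The larval testis already holds dividing germ cells and spermatocytes.

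RNA was sequenced from whole bodies of a strain resistant to avermectins and of a sensitive strain labelled wild type. Avermectins are a class of insecticides whose main target is a chloride channel opened by glutamate. Each strain was sampled as adults and as third-instar larvae, the last larval stage, with 3 libraries each of resistant adults, sensitive adults, resistant larvae and sensitive larvae. The labels name no insecticide exposure of the sampled animals. They also do not give the strains' origin, the sex, age or mating state of the adults, or how many animals made a library. Nothing says that the replicates were separate cultures, so a p-value here reflects variation among libraries that could be technical. Values are FPKM, which are scaled to transcript length and library size and so may be set beside each other between genes. Depth, read from the step that 1 read makes in low FPKM values, was 11200000 to 12580000 reads, and each library had 12997 to 13452 genes above 0. In bulk RNA of whole animals, fewer cells of a type and less RNA per cell cannot be told apart.

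Markers of other tissues were summed for each library. Yolk and eggshell genes, made by the fat body and the follicle cells around the oocyte, summed to 14329.64 to 17344.18 FPKM in resistant adults and 24193.06 to 24818.95 FPKM in sensitive adults. The same 20 genes summed to 7.43 to 10.56 FPKM in resistant larvae, where 8 of them were at 0 in every library, and to 117.87 to 160.92 FPKM in sensitive larvae, where 1 was. Most of the larval sum was 1 yolk gene, Yp3, at 104.7, 148.34 and 143.95 FPKM in sensitive larvae. In resistant larvae Yp3 was at 6.7, 6.2 and 4.62 FPKM. Male germline genes summed to 1191.89 to 1343.62 FPKM in resistant adults, 440.81 to 663.59 FPKM in sensitive adults, 367.43 to 485.08 FPKM in resistant larvae and 245.1 to 286.13 FPKM in sensitive larvae. None of the 16 male germline markers was at 0 throughout a group. Male accessory gland genes summed to 2324.55 to 4428.91 FPKM in resistant adults and 740.03 to 1623.06 FPKM in sensitive adults, so both adult groups held RNA of tissues of both sexes. The part of these markers in the results was not tested.

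The summed FPKM of the 10 genes was 583.21, 854.11 and 259.46 in resistant adults, 688.51, 513.11 and 477.71 in sensitive adults, 24.94, 19.61 and 20.92 in resistant larvae, and 14.34, 17.38 and 17.23 in sensitive larvae. The genes that made up the sum also differed by stage. gnu, osk and nos took 57.01 to 71.79% of it in the adult libraries and 6.04 to 9.69% in the larval libraries. grk and orb took 6.03 to 17.96% in adults and 73.78 to 82.08% in larvae.

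gnu and png encode partners in 1 kinase. PNG is its catalytic subunit and GNU an activating subunit, and the kinase switches on translation of maternal messages when the egg is activated. gnu (FBgn0001120, 3L:14802380-14803360, minus strand, dm6) was at 211.45, 302.02 and 52.45 FPKM in resistant adults, against 1.28, 1.46 and 1.0 FPKM in resistant larvae. It was at 198.17, 195.31 and 187.47 FPKM in sensitive adults, against 0.93, 1.15 and 0.67 FPKM in sensitive larvae. Adults lay above larvae in both strains without overlap, as they did for 38.2% of genes tested in the resistant and 59.4% in the sensitive strain. Resistant adult replicate 3 was far below the other 5 adult libraries. The mean was 151.32-fold higher in adults of the resistant strain and 211.25-fold higher in adults of the sensitive strain. On the log2(FPKM + 1) scale gnu rose by 6.08 ± 0.59 in resistant adults (SE, limma adjusted p = 8.53e-05) and by 6.67 ± 0.15 in sensitive adults (adjusted p = 4.02e-09).

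png (FBgn0000826, X:1356488-1357601, minus strand) was at 33.61, 63.69 and 11.83 FPKM in resistant adults, against 0.53, 0.53 and 0.52 FPKM in resistant larvae. It was at 36.21, 42.05 and 40.45 FPKM in sensitive adults, against 1.0, 0.79 and 0.63 FPKM in sensitive larvae. As for gnu, the lowest adult library was resistant adult replicate 3, and no larval library reached any adult one. At the estimated depth the larval values of png amount to 7.0 to 7.2 reads in each resistant library and 7.9 to 12.9 reads in each sensitive library, so they rest on few reads. png rose by 4.33 ± 0.50 on the log2 scale in resistant adults (adjusted p = 0.000106) and by 4.49 ± 0.16 in sensitive adults (adjusted p = 5.64e-08).

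osk, nos, vas and aub act at the posterior pole of the oocyte. Oskar assembles the germ plasm, the cytoplasm from which germ cells form. osk (FBgn0003015, 3R:8935126-8938395, plus strand) was at 123.48, 168.51 and 65.55 FPKM in resistant adults, against 0, 0 and 0.03 FPKM in resistant larvae. It was at 169.47, 79.02 and 68.76 FPKM in sensitive adults, against 0.09, 0.15 and 0.03 FPKM in sensitive larvae. Among the 10 genes osk had the lowest larval mean in the resistant strain, and it was listed at 0 in 2 of the 3 resistant larval libraries. It rose by 6.79 ± 0.32 on the log2 scale in resistant adults (adjusted p = 1.36e-08) and by 6.5 ± 0.31 in sensitive adults (adjusted p = 3.18e-07). A non-coding transcript of the osk locus, lncRNA:osk, shares 2251 exonic bases, or 78.5% of the exonic length of osk, on the same strand. No separate row of values was found for lncRNA:osk, so its reads cannot be told from those of osk.

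Nanos is a translational repressor that works with Pumilio at the posterior of the embryo and in germ cells. nos (FBgn0002962, 3R:19157238-19160202, plus strand) was at 79.99, 142.6 and 29.91 FPKM in resistant adults, against 0.59, 0.40 and 0.66 FPKM in resistant larvae. It was at 101.9, 87.7 and 78.99 FPKM in sensitive adults, against 0.37, 0.30 and 0.34 FPKM in sensitive larvae. The adult libraries were all above the larval ones, and replicate 3 was again lowest of the resistant adults. nos rose by 5.52 ± 0.48 on the log2 scale in resistant adults (adjusted p = 1.10e-05) and by 6.07 ± 0.15 in sensitive adults (adjusted p = 9.53e-09). It shares 269 exonic bases, 11.5% of its exonic length, with CG11779 on the opposite strand. CG11779 was at 37.67 to 54.21 FPKM in adults and 9.58 to 15.65 FPKM in larvae. The sources used here do not say whether strand was used in counting, and without strand the reads of a shared stretch cannot be told apart.

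Vasa is a DEAD-box RNA helicase of germ cells and of the germ plasm. vas (FBgn0262526 in the table, 2L:15061656-15074311, plus strand) was at 26.74, 34.47 and 14.58 FPKM in resistant adults, against 0.70, 0.59 and 0.96 FPKM in resistant larvae. It was at 26.52, 21.22 and 19.85 FPKM in sensitive adults, against 0.45, 0.58 and 0.65 FPKM in sensitive larvae. The larval libraries were thus all below 1 FPKM and the adult libraries all above 14. vas rose by 3.83 ± 0.30 on the log2 scale in resistant adults (adjusted p = 1.08e-06) and by 3.91 ± 0.18 in sensitive adults (adjusted p = 2.31e-07). The gene solo, which lies in the same transcription unit, shares 563 exonic bases with vas, 24.6% of its exonic length. No separate row of values was found for solo, so the row of vas may include its reads.

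Aubergine is a PIWI protein that silences transposons with piRNAs and is anchored in the germ plasm. aub (FBgn0000146, 2L:10997819-11001476, minus strand) was at 19.51, 24.3 and 12.16 FPKM in resistant adults, against 1.16, 1.35 and 1.40 FPKM in resistant larvae. It was at 18.81, 16.55 and 15.12 FPKM in sensitive adults, against 0.65, 0.76 and 0.94 FPKM in sensitive larvae. Its larval values stood above those of vas in the resistant strain, and the stage groups did not overlap in either strain. aub rose by 3.04 ± 0.27 on the log2 scale in resistant adults (adjusted p = 2.83e-06) and by 3.32 ± 0.17 in sensitive adults (adjusted p = 4.74e-07). It shares 79 exonic bases, 2.62% of its exonic length, with TTLL4A on the opposite strand, which was at 17.07 to 30.71 FPKM in adults and 5.32 to 14.42 FPKM in larvae, so the limit on strand given for nos holds here too.

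bcd and grk set the anterior pole and both egg axes. Bicoid is the homeodomain protein whose message is anchored at the anterior of the oocyte. bcd (FBgn0000166, 3R:6755842-6759466, minus strand) was at 12.62, 22.89 and 5.60 FPKM in resistant adults, against 0.05, 0.06 and 0.25 FPKM in resistant larvae. It was at 25.02, 12.56 and 11.93 FPKM in sensitive adults, against 0.16, 0.10 and 0.12 FPKM in sensitive larvae. Every adult library was above every larval library, although the adult values spread widely: 13.7 ± 8.7 FPKM in resistant adults and 16.5 ± 7.38 FPKM in sensitive adults (SD, n = 3 each). bcd rose by 3.53 ± 0.40 on the log2 scale in resistant adults (adjusted p = 4.53e-05) and by 3.88 ± 0.27 in sensitive adults (adjusted p = 3.59e-06).

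Gurken is a ligand related to TGF-alpha that the oocyte sends to the follicle cells. grk (FBgn0001137, 2L:8431086-8433598, minus strand) was at 16.42, 17.24 and 16.48 FPKM in resistant adults, against 12.86, 10.61 and 9.95 FPKM in resistant larvae. It was at 21.37, 14.72 and 13.53 FPKM in sensitive adults, against 6.60, 10.17 and 10.14 FPKM in sensitive larvae. grk thus read near its adult level in larvae, where it was the highest of the 10 genes in both strains. At the estimated depth its larval values amount to 132.7 to 270.2 reads in a library. Its mean was 1.5-fold higher in adults of the resistant strain, a log2 difference of 0.55 ± 0.22 that did not pass the test (adjusted p = 0.0518). In the sensitive strain it was 1.84-fold higher in adults, and the log2 difference of 0.81 ± 0.22 passed (adjusted p = 0.0109). After median-of-ratios scaling the log2 differences were 0.29 in the resistant strain (adjusted p = 0.267) and 0.18 in the sensitive strain (adjusted p = 0.495), so neither was called.

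grk shares 212 exonic bases, 12.3% of its exonic length, with Akap200 on the opposite strand. Akap200, which encodes an anchoring protein of protein kinase A, was at 62.16, 63.79 and 64.17 FPKM in resistant adults, against 283.84, 156.19 and 198.91 FPKM in resistant larvae. It was at 112.01, 57.44 and 52.74 FPKM in sensitive adults, against 65.30, 73.51 and 40.83 FPKM in sensitive larvae. It was therefore higher than grk in every library. The library with the highest Akap200 of its group was also the highest for grk in sensitive adults and in both larval groups, but not in resistant adults. In sensitive larvae grk was at 10.17 FPKM in the library with the highest Akap200 (73.51 FPKM). It was at 10.14 FPKM in the library with the lowest Akap200 (40.83 FPKM). The part of Akap200 reads in the level of grk was not tested.

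**Figure D1:**
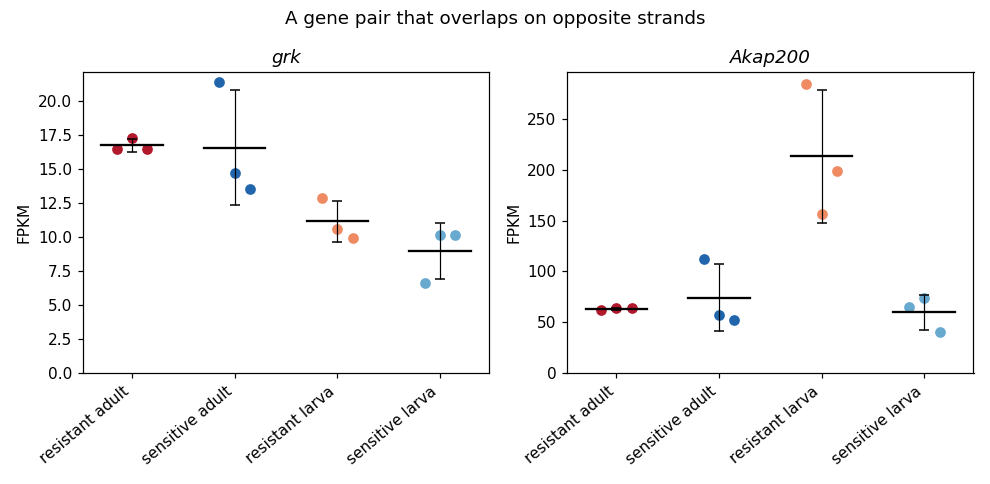
FPKM of grk (left) and Akap200 (right) in the 4 groups; each point is 1 library, the line is the mean and the bar the SD (n = 3), and the axes start at 0 with different scales. grk lay between 13.53 and 21.37 FPKM in adults and between 6.60 and 12.86 FPKM in larvae, while Akap200 was highest in resistant larvae.

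otu and orb act in the making of the oocyte. Otu is a deubiquitinase needed for the differentiation of germline cysts, and Orb is a CPEB protein that controls polyadenylation and translation of localized messages, grk and osk among them. otu (FBgn0003023, X:8485008-8489535, minus strand) was at 28.81, 44.14 and 20.78 FPKM in resistant adults, against 0.16, 0.11 and 0.08 FPKM in resistant larvae. It was at 56.6, 24.66 and 22.94 FPKM in sensitive adults, against 0.11, 0.11 and 0.06 FPKM in sensitive larvae. otu was thus close to 0 in all larval libraries, and sensitive adult replicate 1 was above the other 5 adult libraries. It rose by 4.79 ± 0.27 on the log2 scale in resistant adults (adjusted p = 7.13e-08) and by 4.91 ± 0.32 in sensitive adults (adjusted p = 2.27e-06). otu shares 162 exonic bases, 4.74% of its exonic length, with CG33181 on the opposite strand, with the same limit. CG33181 was at 8.97 to 17.43 FPKM in adults and 3.93 to 15.25 FPKM in larvae.

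orb (FBgn0004882, 3R:23260610-23280856, minus strand) was at 30.58, 34.25 and 30.12 FPKM in resistant adults, against 7.61, 4.50 and 6.07 FPKM in resistant larvae. It was at 34.44, 19.32 and 18.67 FPKM in sensitive adults, against 3.98, 3.27 and 3.65 FPKM in sensitive larvae. Along with grk it was the gene with the highest larval level, and its stage groups did not overlap. orb rose by 2.23 ± 0.24 on the log2 scale in resistant adults (adjusted p = 1.48e-05) and by 2.39 ± 0.24 in sensitive adults (adjusted p = 3.33e-05), which is 5.22-fold and 6.64-fold in mean FPKM.

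**Figure D2:**
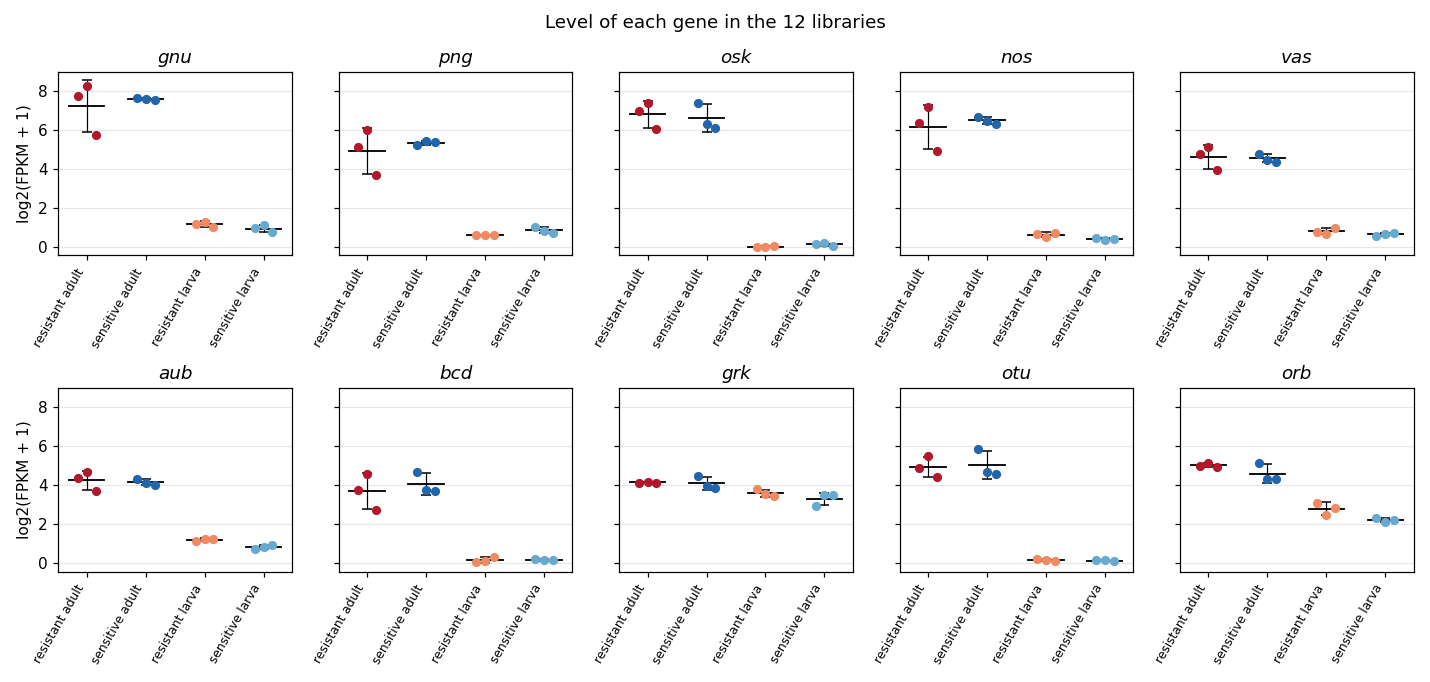
Level of each of the 10 genes as log2(FPKM + 1) in the 4 groups; each point is 1 library, the line is the mean and the bar the SD of the log2 values (n = 3). In every panel the 6 adult libraries lie above the 6 larval libraries, as for 24.1% of the 12270 genes tested in all libraries, with the smallest gap for grk, and resistant adult replicate 3 (the rightmost of its 3 points) is lowest of the resistant adults for every gene but grk.

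In the test of adults against larvae, 9 of the 10 genes were called higher in resistant adults, where 34.7% of 12013 genes tested were called higher, 17.4% lower and 52.1% in either direction. All 10 were called higher in sensitive adults, where 55.7% of 11644 genes were higher, 13.2% lower and 68.9% either. All 10 genes passed the filter on low values in both fits. For 5 of them (osk, bcd, nos, vas and otu) every larval library was below 1 FPKM. Larval libraries alone met the filter, 1 FPKM in 3 libraries, only for grk, orb, aub and gnu in the resistant strain. In the sensitive strain they did so only for grk and orb. The other genes passed with the help of adult libraries, where they are high, so their calls are not independent of the filter. The median log2 difference of the 10 genes was 4.08 in the resistant strain and 4.20 in the sensitive strain, against 0.28 and 0.62 over all genes tested. The whole distribution was thus shifted towards adults. Median-of-ratios scaling, which sets the typical gene to no change, moved the median of all genes to 0.03 in the resistant strain and 0.04 in the sensitive strain. After it 28.3% of genes were higher and 25% lower in resistant adults, and 29.0% higher and 26% lower in sensitive adults. The median of the 10 genes was then 3.88 in the resistant strain and 3.76 in the sensitive strain, and 9 of 10 were called higher in each strain, all but grk.

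**Figure D3:**
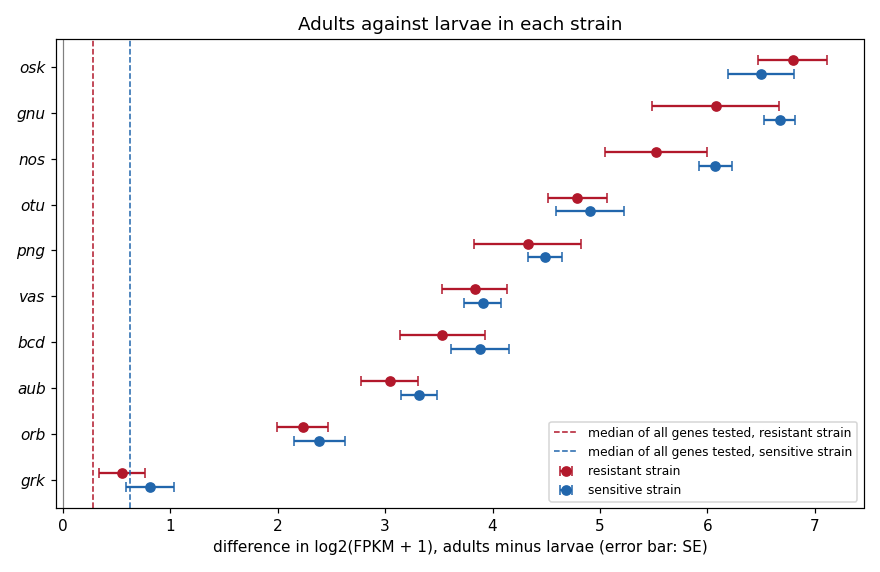
Difference in log2(FPKM + 1), adults minus larvae, of each gene in the resistant and the sensitive strain with its SE; dashed lines mark the median of all genes tested in each strain. The differences run to 6.79 for osk in the resistant strain, and grk, at 0.55 and 0.81, is the gene nearest to the medians of all genes.

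The difference of the stage effect between the strains was tested in all 12 libraries. None of the 10 genes was called, where 29.7% of 12270 genes tested were called, 9.98% with a larger and 19.7% with a smaller value in the resistant strain. After scaling these shares were 15.7% and 7.82%. The differences of log2 effects, resistant minus sensitive, were 0.30 for osk and between -0.60 (gnu) and -0.07 (vas) for the other 9 genes, with limma adjusted p of 0.444 to 0.890. None had an unadjusted p under 0.05, and none was called by limma without the trend and robust options. Their SEs ran from 0.31 (grk) to 0.65 (gnu), and a p that misses the threshold does not show that the strains' stage effects were alike.

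The order of levels within a group was clearer in larvae than in adults. In sensitive adults gnu (193.65 ± 5.54 FPKM; SD, n = 3 here and below) stood above osk (105.75 ± 55.42 FPKM) and nos (89.53 ± 11.56 FPKM), which overlapped. png, otu, orb and vas followed in this order, each overlapping the next, and then aub, grk and bcd, again with overlaps. Gaps without overlap lay between gnu and osk, between nos and png and between vas and aub. In resistant adults every gene overlapped its neighbour in the order, from gnu (188.64 ± 126.34 FPKM) to bcd. In resistant larvae grk (11.14 ± 1.53 FPKM) stood above orb (6.06 ± 1.56 FPKM), and orb above aub (1.3 ± 0.13 FPKM), without overlap. In sensitive larvae grk (8.97 ± 2.05 FPKM) and orb (3.63 ± 0.36 FPKM) also stood apart from each other and from gnu (0.92 ± 0.24 FPKM), the next in the order.

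Among adults, 2 libraries stood apart for these genes. This was seen in the values and then counted, with no test. Resistant adult replicate 3 held 0.204 times the gnu of the mean of replicates 1 and 2, 0.243 times the png, 0.269 times the nos and 0.315 times the bcd. The ratio was 0.449 for osk, 0.476 for vas, 0.555 for aub and 0.57 for otu. It was 0.929 for orb and 0.979 for grk, the 2 genes with a ratio nearest to 1. In all, 6 of the 10 genes were below 0.5 times the mean of the other resistant adults, as were 11.9% of the 11612 genes tested in adults. The median ratio of all adult genes was 0.85. The yolk and eggshell sum had a ratio of 1.037, but the median ratio of its 20 genes was 0.731. The male germline sum had a ratio of 0.929 (median gene 1.011) and the male accessory gland sum one of 0.542 (median gene 0.581). For larval body genes the sum had a ratio of 1.498 and the median gene one of 4.646, while for adult head and flight muscle genes the sum had 2.603 and the median gene 1.062. A few abundant genes thus set some of these sums. Among the germline lists, 16 of 26 piRNA genes, 13 of 18 egg activation genes and 6 of 11 meiosis genes were below 0.5 times the mean of the other resistant adults, and 2 of 14 to 4 of 16 genes of the other 5 lists were. The part of these tissues in the values of replicate 3 was not tested.

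Sensitive adult replicate 1 was high for a partly different set, with osk and bcd standing out in both libraries. It held 2.378 times the otu of the mean of replicates 2 and 3, 2.294 times the osk, 2.043 times the bcd, 1.813 times the orb and 1.513 times the grk. For gnu the ratio was 1.035 and for png 0.878. In this library 5 of the 10 genes were above 1.5 times the mean of the other sensitive adults, as were 22.6% of all adult genes tested. Over 1.5 times were also 13 of 16 genes of translational control by CPEB and partners and 13 of 20 germ plasm genes. In the other germline lists 4 of 11 to 10 of 17 genes were, and the piRNA list, with 13 of 26, lay within this range. Its marker sums had ratios of 1.011 for yolk and eggshell (median gene 0.939), 0.666 for the male germline (1.044), 0.457 for the male accessory gland (0.506), 0.86 for the larval body (0.773) and 1.365 for adult head and flight muscle (1.201). The part of these tissues was not tested here either. For each of the 10 genes the range within 1 strain's adults exceeded the difference between the strains' adult means.

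**Figure D4:**
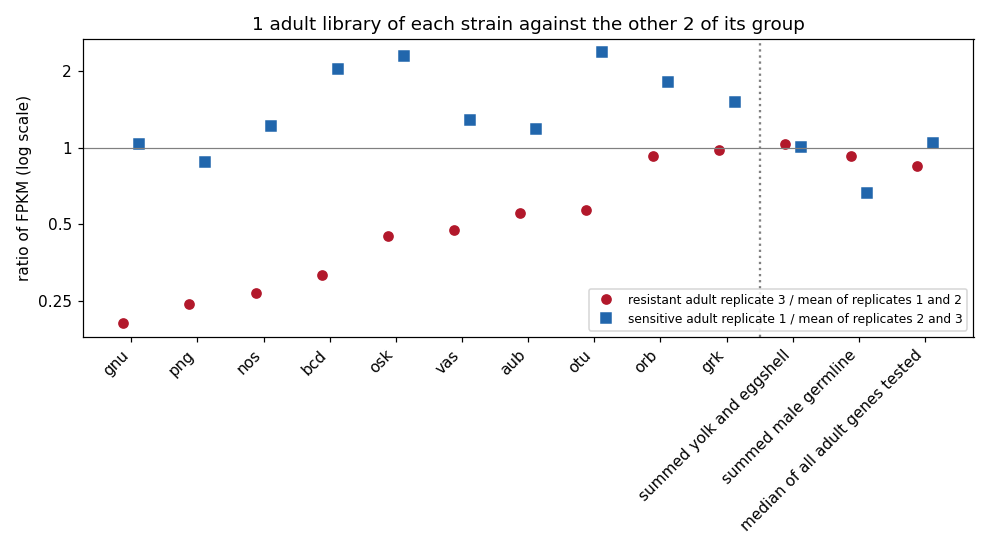
FPKM of resistant adult replicate 3 divided by the mean of replicates 1 and 2 (circles), and of sensitive adult replicate 1 divided by the mean of replicates 2 and 3 (squares), on a log scale, for the 10 genes, 2 marker sums and the median of all adult genes tested. The circles run from 0.204 for gnu to 0.979 for grk, and the squares reach 2.378 for otu. The summed yolk and eggshell ratios are 1.037 and 1.011, whereas the median ratios of the 20 genes, not drawn, are 0.731 and 0.939.

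Between the strains, no difference in the adult level of the 10 genes passed the test. None of 10 was called, where 19.9% of 11612 genes were called, 15.9% higher and 3.95% lower in resistant adults (10.6% and 4.41% after scaling). The adult groups overlapped for all 10 genes, and did not overlap for 32.1% of all genes tested. The log2 differences, resistant minus sensitive, ran from 0.43 ± 0.27 for orb (SE, limma adjusted p = 0.376) to -0.40 ± 0.48 for png (adjusted p = 0.734). None had an unadjusted p under 0.05, and limma without the trend and robust options called none. Without sensitive adult replicate 1, orb was higher in resistant adults by 0.71 (adjusted p = 0.0449), and without resistant adult replicate 3 gnu, nos, png, otu and bcd turned to positive differences of 0.38, 0.26, 0.23, 0.16 and 0.12, none of them called. Beside these, 12 of 15 male germline genes and 7 of 11 male accessory gland genes were called higher in resistant adults, and 4 of 20 yolk and eggshell genes lower. The share of each sex among the pooled adults is not given in the labels, and its part in these values was not tested.

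In larvae 4 of the 10 genes passed the filter of 1 FPKM in 3 libraries of the larval fit (orb, aub, grk and gnu). aub met it only through resistant larvae, as every sensitive larval library was below 1 FPKM. Sensitive larvae alone did not meet it for gnu either. The tests of aub and gnu are therefore not independent of the filter. orb was called higher in resistant larvae, where 48.8% of 11055 genes were called higher, 9.84% lower and 58.7% in either direction. Its log2 difference was 0.59 ± 0.20 (SE, limma adjusted p = 0.0271), near the median of 0.49 over all larval genes. After scaling it was 0.12 (adjusted p = 0.666), with 11.0% of genes higher and 19.2% lower. The call was also lost without resistant larva replicate 1 (adjusted p = 0.0900) or 3 (0.0591), and without sensitive larva replicate 2 (0.0857) or 3 (0.0673). The other 3 genes differed by 0.37 ± 0.17 for aub (adjusted p = 0.0771), 0.30 ± 0.20 for grk (adjusted p = 0.205) and 0.23 ± 0.18 for gnu (adjusted p = 0.281). Of the 6 genes below the filter, nos was higher and png lower in every resistant larval library than in any sensitive one, at no more than 1.0 FPKM. The larval strains thus did not overlap for 4 of the 10 genes (nos, orb, aub and png), 2 of them among the 4 tested, where 65.3% of all larval genes tested did not overlap.

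Other genes linked to the female germline, the follicle cells or the egg were followed in 8 lists of germline and maternal functions. Not all are particular to the female germline: rho, bru1 and bam, described below, also act elsewhere, and bam is among the male germline markers too. The counts therefore do not describe the female germline alone. Their counts are to be read against the 34.7% of all genes called higher in resistant adults and the 55.7% in sensitive adults, or 28.3% and 29% after scaling. The piRNA pathway had 19 of 24 tested genes higher and 0 lower in resistant adults, and 24 of 25 higher and 0 lower in sensitive adults. Its median log2 difference was 1.38 in the resistant and 2.10 in the sensitive strain. piwi, which encodes the nuclear partner of piRNAs, was at 14.17 ± 4.03 FPKM in resistant adults, against 0.67 ± 0.03 FPKM in resistant larvae. It was at 19.81 ± 8.04 FPKM in sensitive adults, against 0.54 ± 0.03 FPKM in sensitive larvae. piwi rose in both strains, by 3.15 and 3.69 on the log2 scale. Panx, which acts with Piwi in transcriptional silencing, differed by -0.27 in the resistant strain (adjusted p = 0.483). In the sensitive strain it differed by 0.85 (adjusted p = 0.0115), a call that ended after scaling (0.30, adjusted p = 0.249).

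The list of egg activation and PNG kinase genes had 9 of 18 higher and 0 lower in resistant adults, and 17 of 18 higher and 0 lower in sensitive adults, or 12 and 0 after scaling. Without resistant adult replicate 3 the count in the resistant strain was 15. alphaTub67C, a tubulin of the egg and early embryo, was at 195.72 ± 129.2 FPKM in resistant adults, against 0.10 ± 0.09 FPKM in resistant larvae. It was at 212.37 ± 11.34 FPKM in sensitive adults, against 0.19 ± 0.11 FPKM in sensitive larvae. Like gnu it spread widely over the resistant adult libraries and little over the sensitive ones. It rose by 7.22 and 7.49 on the log2 scale in the resistant and the sensitive strain. Trpm, a cation channel of egg activation, differed by 0.13 in the resistant strain (adjusted p = 0.678) and was called in the sensitive strain at 0.94 (adjusted p = 0.00598) but not after scaling (0.40, adjusted p = 0.131).

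The germ plasm list had 10 of 20 genes higher and 1 lower in resistant adults, and 17 higher and 1 lower in sensitive adults, which became 11 and 1 after scaling. swa, which encodes a protein needed to place bcd RNA at the anterior, was at 57.19 ± 35.45 FPKM in resistant adults, against 0.16 ± 0.08 FPKM in resistant larvae, and at 70.47 ± 15.06 FPKM in sensitive adults, against 0.06 ± 0.07 FPKM in sensitive larvae. It rose by 5.45 and 6.06 on the log2 scale in the resistant and the sensitive strain. tud, which encodes the scaffold that binds Aubergine in the germ plasm, went the other way in the resistant strain. It fell by 1.14 in resistant adults (adjusted p = 0.00762), while the difference in the sensitive strain was -0.14 (adjusted p = 0.737). The maternal patterning list had 8 of 17 higher and 2 lower in resistant adults and 13 higher and 0 lower in sensitive adults. tub, an adaptor of the Toll pathway, fell by 0.71 in resistant adults (adjusted p = 0.0257). In the sensitive strain it was higher in adults by 0.52 (adjusted p = 0.0435), which turned to -0.12 after scaling (adjusted p = 0.607).

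The list of gurken signalling and oocyte axis genes was mixed. In resistant adults 6 of 25 genes were higher and 7 lower, or 10 higher and 6 lower without replicate 3. In sensitive adults 17 of 26 were higher and 3 lower, which became 11 and 3 after scaling. cup, which encodes an eIF4E-binding repressor of osk and grk translation, rose by 2.47 in the resistant and 3.06 in the sensitive strain. rho, a protease that processes EGF receptor ligands in follicle cells and in many larval tissues, was at 2.15 ± 0.50 FPKM in resistant adults, against 7.75 ± 2.87 FPKM in resistant larvae. It was at 1.99 ± 0.65 FPKM in sensitive adults, against 5.05 ± 1.27 FPKM in sensitive larvae, and it fell by 1.43 in resistant adults and fell by 1.02 in sensitive adults.

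Genes of cyst differentiation and germline sex were higher in 6 and lower in 1 of 14 cases in resistant adults, and higher in 8 and lower in 0 of 14 in sensitive adults, the second close to the share of all genes called higher. bru1, a translational repressor of osk and also a regulator of flight muscle splicing, rose by 3.08 and 3.34 in the resistant and the sensitive strain. bam, which acts in germ cell differentiation in both sexes, was at 5.97 ± 4.50 FPKM in resistant adults, against 17.89 ± 1.91 FPKM in resistant larvae. It was at 10.03 ± 4.53 FPKM in sensitive adults, against 7.54 ± 3.76 FPKM in sensitive larvae. bam fell by 1.66 in resistant adults (adjusted p = 0.00852), and its difference in the sensitive strain was 0.39 (adjusted p = 0.360) and -0.22 after scaling.

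Among partners of Orb in translational control, 8 of 16 genes were higher and 0 lower in resistant adults, and 12 higher and 1 lower in sensitive adults, or 8 and 2 after scaling. wisp, the cytoplasmic poly(A) polymerase of the oocyte, rose by 4.48 in the resistant and 4.61 in the sensitive strain. Not1, the scaffold of the deadenylase complex, did not pass in either strain, with log2 differences of -0.32 (adjusted p = 0.383) in the resistant and 0.36 (adjusted p = 0.316) in the sensitive strain. In the list of oocyte meiosis 5 of 13 genes were higher and 0 lower in resistant adults, and 9 of 11 higher and 1 lower in sensitive adults. Without resistant adult replicate 3 the count higher in the resistant strain was 8. mtrm, a Polo inhibitor of the oocyte, rose by 5.95 and 6.25. cona, a protein of the synaptonemal complex, differed by -0.46 in the resistant strain (adjusted p = 0.282) and fell by 0.66 in sensitive adults (adjusted p = 0.0135).

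**Figure D5:**
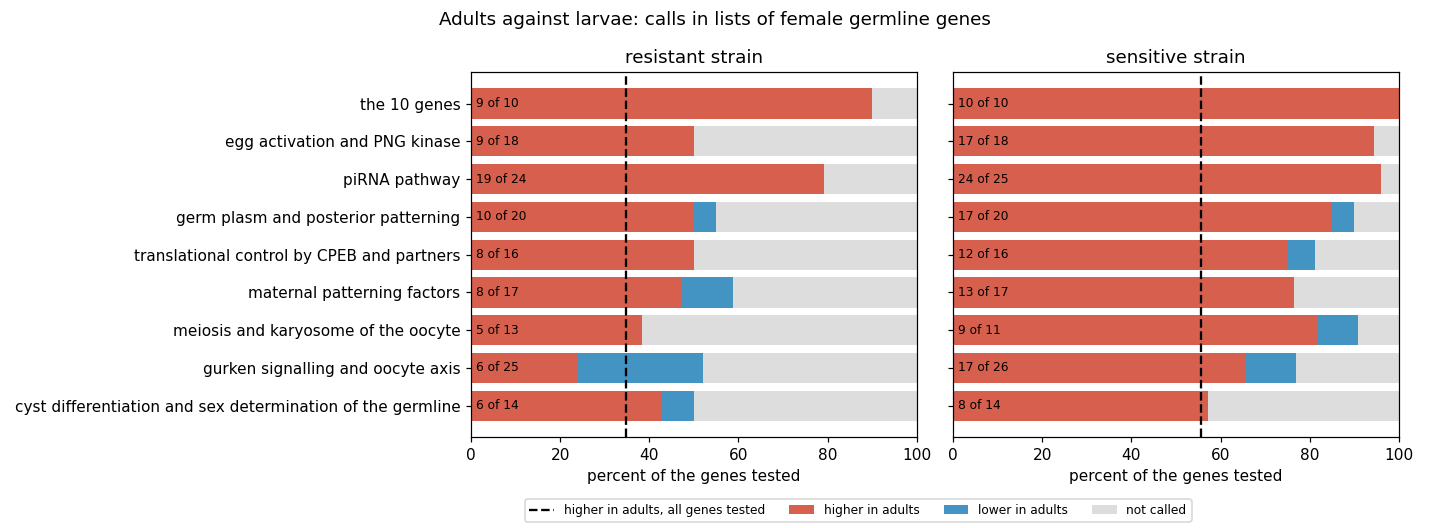
Percent of the tested genes of each list called higher, called lower or not called in adults against larvae, for the resistant strain (left) and the sensitive strain (right); the text in each bar gives the number called higher, and dashed lines mark the percent of all genes tested that were called higher. The piRNA pathway list has 19 of 24 and 24 of 25 genes higher, and the gurken signalling list, with 6 of 25 in the resistant strain, lies below the dashed line there.

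For comparison, all 20 yolk and eggshell genes and all 11 male accessory gland genes were called higher in adults of both strains, and all 13 larval body genes tested were called lower. Of 15 male germline genes 11 were higher and 1 lower in resistant adults. In sensitive adults 9 were higher and 1 lower, which became 1 higher and 3 lower after scaling. Several lists share genes (bru1, cup and wisp among them), so their counts are not independent.

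The genes whose profile over the 12 libraries was most like the mean profile of the 10 genes were Kots, Mos, APC7, fs(1)M3, wisp, Drep2, CG43090 and CycB. Likeness was the Euclidean distance between profiles of log2(FPKM + 1) centred on each gene's mean, and ran from 0.607 for Kots to 1.002 for CycB. Kots was at 17.45 ± 8.85 FPKM in resistant adults, against 0.29 ± 0.08 FPKM in resistant larvae. It was at 22.39 ± 5.57 FPKM in sensitive adults, against 0.16 ± 0.05 FPKM in sensitive larvae. CycB, a mitotic cyclin, kept a higher larval level, with 300.22 ± 179.19 FPKM in resistant adults, against 24.89 ± 1.86 FPKM in resistant larvae, and 338.72 ± 96.13 FPKM in sensitive adults, against 15.09 ± 1.12 FPKM in sensitive larvae. The nearest single gene was plu for png (distance 0.796), swa for nos (0.473), wisp for otu (0.653), fs(1)M3 for vas (0.448) and clos for aub (0.677). It was CG11674 for gnu (0.892), CG42705 for osk (1.206), CG5568 for bcd (0.545), P5CDh1 for grk (0.48) and Eaat2 for orb (0.725).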

How the data were processed

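Per the labels' protocols, TRIzol was used to extract total RNA, and libraries were made for the BGISEQ-500. Tools named in the submitters' processing notes are STAR, RSEM 1.3.3, FastQC 0.11.9 and edgeR 3.12, with dm6 as the genome build and no settings. The authors deposited FPKM values for 14001 genes, and no counts were used. Coordinates and exon overlaps came from the Ensembl release 115 annotation of dm6, which matched 13777 identifiers. vas has an older identifier in the table and was placed by its symbol.

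The 10 genes and the 13 lists were chosen by name, but with earlier results of these data known. The lists hold 228 entries, 221 of them in the table, and a gene on several lists counts as several entries. Genes at 1 FPKM or more in at least 3 libraries of a fit were tested with limma 3.58.1 (R 4.3.3; trend and robust) on log2(FPKM + 1), two-sided, with Benjamini-Hochberg adjustment over all genes tested and a threshold of 0.05. Fold changes on this scale understate those of low genes. Each comparison used its own 6 libraries, and the difference of stage effects all 12. Named list genes are those with the largest and smallest stage difference in the resistant strain, and those with the largest called strain difference in each direction; the text names part of the marker genes this takes. The fits were tested on FPKM simulated from sensitive-strain means, with the same added spread between libraries for every gene. Genes such as gnu and png varied more than this in resistant adults, so the simulation does not cover them there. Depth was estimated from steps of 417 to 528 genes with 1 transcript per library, of whose values 94.13 to 96.55% were no more than 0.2 reads from a whole number (40% by chance). Within groups, libraries had a Pearson correlation across genes of 0.954 to 0.995 on the log2(FPKM + 1) scale, and no 2 libraries held the same values. Plots used matplotlib 3.10.9.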

Additional observations from a re-analysis of the deposited data

How the results depend on the processing

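In adults against larvae, the direction of all 10 genes and the calls of 9 held under every alternative run: no filter, a filter on a mean FPKM of 5, a smaller pseudocount of 0.1, both scalings, 1 fit of 12 libraries, no trend or robust options, the replicate block, a log2 fold minimum of 1 and each library left out. The exception is grk. In the resistant strain it was called in 1 fit of 12 libraries (adjusted p = 0.0400), without trend and robust (0.0400) and without resistant adult replicate 3 (0.0452). In the sensitive strain it lost its call after median-of-ratios (0.18) and upper-quartile scaling (0.18) and with the fold minimum. That minimum left 4721 of 8023 genes called in the sensitive strain, 1271 of 2309 between adult strains and 2010 of 6484 between larval strains, where median-of-ratios left 3342 and upper-quartile scaling 4068. With 1 library left out, genes called ran from 5062 to 7218 (stage, resistant), 7108 to 8588 (stage, sensitive), 578 to 2364 (adult strains: 578 without resistant adult replicate 1, 940 without sensitive adult replicate 3, 1198 without 2), 4981 to 6356 (larval strains) and 2126 to 4752 (difference of stage effects: 2126 without sensitive larva replicate 3, 2356 without resistant larva replicate 1, 2406 without resistant adult replicate 1). Of the 10 genes, 0 to 1 were then called between adult strains and 0 to 1 between larval strains. Between larval strains 2 were called with no filter (orb and aub), and 0 with a mean FPKM of at least 5, either scaling, 1 fit of 12 libraries or the fold minimum.

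Among the 10 genes, signs turned only for differences that were not called. Median-of-ratios scaling gave -0.094 for grk, -0.050 for vas and -0.041 for aub between adult strains, -0.219 for grk and -0.058 for gnu between larval strains, and 0.147 for grk, 0.190 for orb and 0.039 for vas in the difference of stage effects. Upper-quartile scaling gave -0.038 for grk between larval strains, and 0.072 for grk, 0.130 for orb, 0.056 for vas and 0.008 for png in the difference. A pseudocount of 0.1 gave 0.088 for png there. With 1 library left out, the adult strain differences ran from -0.112 to 0.584 (osk), -0.168 to 0.425 (vas), -0.113 to 0.359 (aub), -0.807 to 0.121 (bcd), -0.848 to 0.26 (nos), -0.366 to 0.315 (otu), -0.942 to 0.225 (png), -0.869 to 0.383 (gnu) and -0.083 to 0.229 (grk). The differences of stage effects ran from -0.003 to 0.692 (osk), -0.794 to 0.134 (bcd), -1.058 to 0.05 (nos), -0.331 to 0.263 (vas), -0.396 to 0.285 (otu), -0.704 to 0.463 (png), -1.1 to 0.151 (gnu) and -0.325 to 0.119 (orb). The cause was not tested.

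Replicate numbers are shared by all groups, but same-numbered libraries did not consistently deviate together. The correlations of their deviations from the group means ran from -0.262 to 0.202. In 5 of 12 cases a library of a comparison's first group was best correlated with its own number in the other group. Resistant adults were the first group in more than 1 comparison and sensitive larvae in none, so the 12 cases are not 12 separate libraries. With the replicate block 6296, 7834, 2438, 6102 and 3796 genes were called (stage in the resistant and in the sensitive strain, adult strains, larval strains, difference), and 9, 10, 0, 1 and 0 of the 10 genes. Depth limits the larval values, which for png rest on 7.0 to 12.9 estimated reads per library.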

Other observations

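Larval strains differed in several germline list genes not described so far. pgc, which blocks transcription in primordial germ cells, was at 8.11 ± 2.82 FPKM in resistant larvae and 19.92 ± 4.89 FPKM in sensitive larvae (SD, n = 3 each), lower by 1.22 on the log2 scale (limma adjusted p = 0.00301). It was the germ plasm gene with the largest fall, while 13 of the 19 tested genes of that list were higher and 2 lower in resistant larvae. stau, which carries osk and bcd RNA, was among those higher, at 12.83 ± 3.41 FPKM in resistant larvae and 4.89 ± 0.50 FPKM in sensitive larvae (log2 difference 1.21, adjusted p = 0.00111). In the piRNA list 11 of 14 were higher and 0 lower, and in the egg activation list 10 of 14 and 0. With 48.8% of all larval genes called higher, these counts shrank after median-of-ratios scaling to 2 higher and 2 lower of 19, 2 and 0 of 14, and 3 and 0 of 14. Of the 8 germline lists, 3 held a gene called between the adult strains: 1 of 20 in the germ plasm list, 1 of 14 in the cyst list and 3 of 16 in the list of translational control. All were higher in resistant adults, where 15.9% of all genes tested were called higher and 19.9% in either direction. After median-of-ratios scaling the counts were 1, 0 and 1, with 10.6% of all genes higher. The gene called in the germ plasm list is Tm1, a tropomyosin that also acts in osk RNA transport. Tm1 was at 2179.83 ± 498.66 FPKM in resistant adults and 848.57 ± 36.18 FPKM in sensitive adults (log2 difference 1.33, limma adjusted p = 0.00895).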
